A study of Homo sapiens with 4 samples.

Results

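Cells sense low oxygen through the hypoxia inducible factors (HIF), and the transcripts followed here are those of 10 genes of that system: HIF1A, ARNT, VHL, EGLN1, EGLN2, VEGFA, KDM3A, P4HA1, BNIP3L and ANKRD37. They were taken by gene name from the deposited table of 20665 genes, each name matched 1 row, and all 10 passed the filter on low counts that left 13626 genes to test. The cells were NALM6, an established leukemia line that grew out of human B cell precursors. In 2 libraries (AICAR) the cells had been deprived of glucose for 24 h and then given 15 mM AICAR for 45 min, and in 2 libraries (vehicle) they had been given DMSO for 45 min. Inside cells AICAR is phosphorylated to an AMP mimic that activates AMPK, a kinase that senses energy shortage. Whether vehicle cells were also deprived is not stated, so AICAR and the lack of glucose cannot be told apart. No allele or genetic change is given for either group, and no oxygen level is stated.

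In textbook terms, HIF1A pairs with ARNT to form the DNA-binding factor. When oxygen is present, the prolyl hydroxylases EGLN1 and EGLN2 mark HIF1A protein, and the ubiquitin ligase that contains VHL then has it degraded. When oxygen is short, HIF1A protein accumulates and switches on targets such as VEGFA, a growth factor for blood vessels, and BNIP3L, a receptor for the removal of mitochondria. Much of this control acts on HIF1A protein, which RNA counts do not measure.

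With AICAR, 5 of the 10 transcripts were lower and none was higher (edgeR, p adjusted over all tested genes by Benjamini-Hochberg, under 0.05). Over all tested genes 19.7% were lower and 19.4% higher. VEGFA was 2.21-fold lower and ANKRD37 1.92-fold lower, while KDM3A and VHL were lower by 1.25-fold and 1.17-fold. HIF1A was lower by the least, with a log2 fold change of -0.13. The remaining 5, EGLN1, P4HA1, EGLN2, ARNT and BNIP3L, differed from vehicle by at most 1.05-fold and did not pass the test. The count of 0 higher was also found at an unadjusted p under 0.05 in edgeR, with DESeq2 and with limma-voom. The median log2 fold change of the 10 genes was -0.10, against 0.00 over all tested genes. Both AICAR values lay below both vehicle values for 7 of the 10, a pattern that 34.9% of all tested genes showed. The 10 genes and the further lists below were chosen with earlier results of these data known. An excess over the share of all tested genes is therefore no test of a list.

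**Figure D1:**
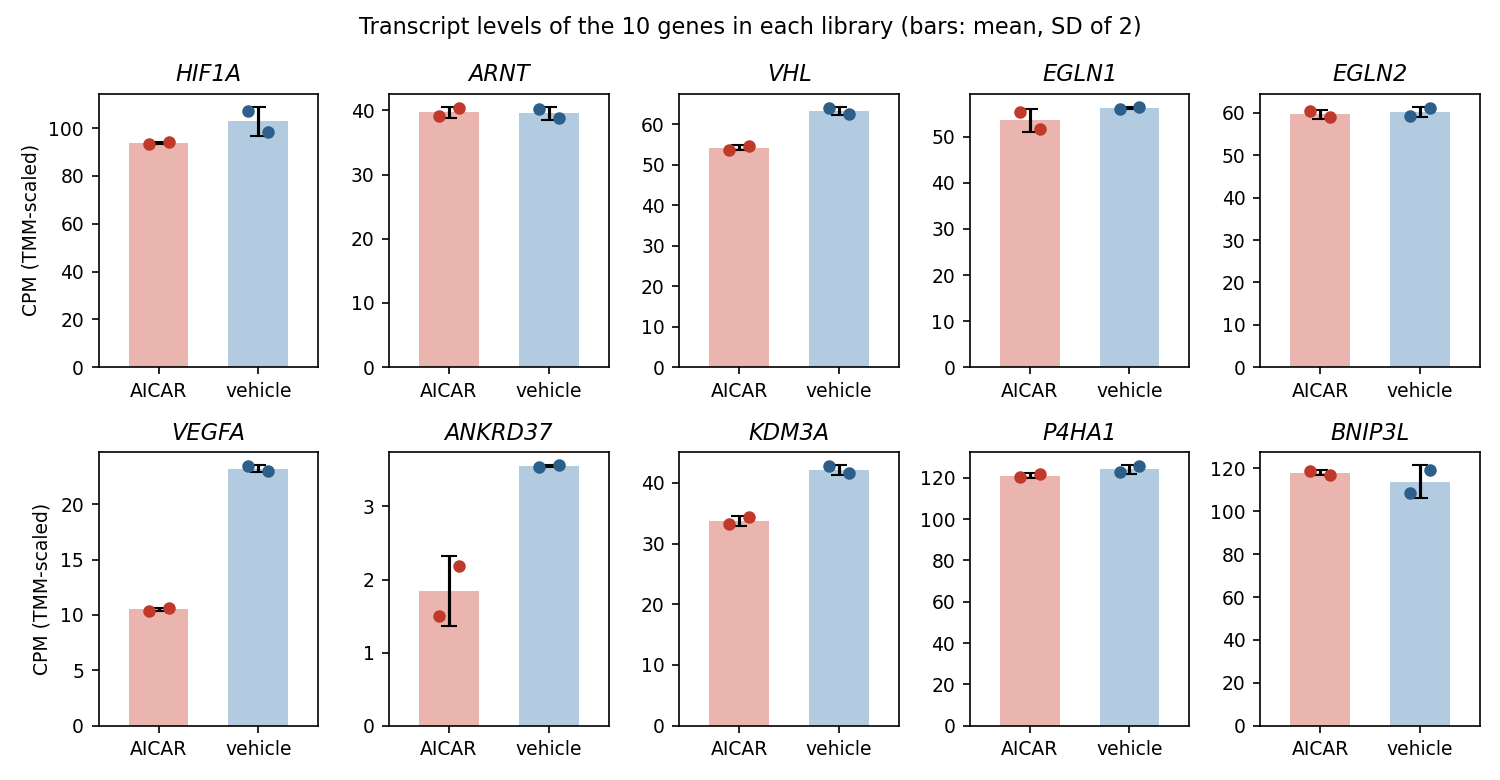
Each panel plots 1 gene, with CPM (counts relative to the TMM-scaled library size) on the y axis, points for single libraries, and bars with the mean and SD of 2 libraries, AICAR left of vehicle. VEGFA, ANKRD37, KDM3A and VHL show AICAR points well below the vehicle points, while the points of ARNT, EGLN2 and BNIP3L overlap between the groups.

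Among the subunits of the factor itself, HIF1A (ENSG00000100644), the oxygen-regulated subunit, had 93.5 and 94.1 CPM (read counts relative to the TMM-scaled library size) in the AICAR libraries and 107 and 98.4 CPM in the vehicle libraries. On the CPM scale the groups did not overlap, but vehicle replicate 2 lay nearer to the AICAR values than to vehicle replicate 1. In FPKM vehicle replicate 2 lay nearer to vehicle replicate 1, with 44.15 and 44.8 FPKM with AICAR against 52.5 and 51.3 FPKM with vehicle. The log2 fold change was -0.13 ± 0.046 (SE, edgeR adjusted p = 0.0398). The call was lost without vehicle replicate 1 (log2 fold change -0.07, edgeR adjusted p = 0.275), without AICAR replicate 1 (-0.13, adjusted p = 0.0895) or 2 (-0.13, adjusted p = 0.0734), and in 3 other settings given with the processing alternatives. ARNT (ENSG00000143437), its constant partner, had 39.1 and 40.3 CPM with AICAR against 40.3 and 38.8 CPM with vehicle. Those values overlapped (log2 fold change 0.01 ± 0.050, SE, edgeR adjusted p = 0.935).

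A transcript that overlaps HIF1A on the same strand in GENCODE 29, RP11-618G20.1, was lower by 3.09-fold, with 29.1 and 28.4 counts with AICAR against 97.1 and 97.6 with vehicle (edgeR adjusted p = 0.000227). It was singled out after its values were seen. Reads in the shared part cannot be assigned with certainty, and HIF1A had 2985 and 3145 counts with AICAR against 3786 and 3618 with vehicle. The antisense gene HIF1A-AS2 had 3 and 5 counts in the AICAR libraries and 3 and 5 in the vehicle libraries.

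Of the genes that sense oxygen and remove HIF1A protein, VHL passed the test and the hydroxylases did not. VHL (ENSG00000134086), the substrate-binding part of the ligase, had 53.7 and 54.6 CPM with AICAR and 64.0 and 62.6 CPM with vehicle. The groups lay further apart than the libraries within either of them. The log2 fold change was -0.23 ± 0.043 (SE, edgeR adjusted p = 0.00158). VHLL, a VHL-like relative, had 0 and 1 counts with AICAR and 0 and 1 with vehicle.

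EGLN1 (ENSG00000135766), the main HIF prolyl hydroxylase in many cells, had 55.4 and 51.8 CPM in AICAR libraries against 56.1 and 56.5 CPM in vehicle libraries. It did not pass (log2 fold change -0.07 ± 0.047, SE, edgeR adjusted p = 0.262), and AICAR replicate 1 lay close to the vehicle values. EGLN2 (ENSG00000269858) had 60.35 and 58.9 CPM with AICAR against 59.4 and 61.15 CPM with vehicle. These ranges overlapped (log2 fold change -0.02 ± 0.043, SE, edgeR adjusted p = 0.822).

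EGLN2 shares its exons with the read-through gene RAB4B-EGLN2, so its count is uncertain. The read-through gene was assigned 0 and 121 counts in the AICAR libraries and 4.88 and 1.1 in the vehicle libraries. With these added, EGLN2 had 1927 and 2092 counts with AICAR and 2101 and 2250 with vehicle, and the difference of 0.03 on the log2 scale did not pass either (edgeR adjusted p = 0.677). RAB4B, the neighbour that the read-through joins to EGLN2, rose by 0.29 on the log2 scale with an edgeR adjusted p of 0.0472, a call lost in 8 of the 15 settings, among them those without AICAR replicate 1 (adjusted p = 0.417) or vehicle replicate 2 (0.0795). EGLN3, the third hydroxylase and itself a HIF target in many tissues, had 0 and 0 counts with AICAR against 2 and 1 with vehicle. HIF1AN, an asparagine hydroxylase that blocks HIF1A from its coactivators, had 39.7 ± 1.61 CPM with AICAR and 42.1 ± 1.43 CPM with vehicle (SD, n = 2) and did not pass (edgeR adjusted p = 0.226).

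VEGFA (ENSG00000112715) had the largest fall of the 10. It had 332 and 355 counts in the AICAR libraries and 828 and 846 counts in the vehicle libraries, or 10.4 and 10.6 CPM against 23.45 and 23.0 CPM. Replicates of a group differed by far less than the groups did. The log2 fold change was -1.14 ± 0.070 (SE, edgeR adjusted p = 4.22e-07), and VEGFA was called lower in each of 15 alternative settings. Of 13626 tested genes, 3.36% had a lower log2 fold change than VEGFA. Among 3837 protein-coding genes with a mean CPM within 2-fold of VEGFA's, 74, VEGFA included, fell at least as far. In bulk RNA a lower level per cell and fewer expressing cells cannot be told apart.

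The 3 protein-coding genes of similar level whose values over the 4 libraries were nearest to VEGFA's were CCRL2, TRIM13 and FAM83D. Likeness was the Euclidean distance between log2 CPM values centred on each gene's mean, over 3836 genes. CCRL2, a receptor-like protein that binds chemerin, was at a distance of 0.0267, with 5.67 and 5.71 CPM with AICAR against 12.5 and 12.5 CPM with vehicle. TRIM13, a ubiquitin ligase of the endoplasmic reticulum, was at 0.0524, with 14.25 and 14.27 CPM with AICAR against 32.5 and 32.5 CPM with vehicle. FAM83D, a spindle protein, was at 0.05385, with 11.15 and 12.0 CPM with AICAR against 25.75 and 25.1 CPM with vehicle.

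ANKRD37 (ENSG00000186352), an ankyrin repeat protein known as a HIF1A target, was the least abundant of the 10. It had 48 and 73 counts with AICAR against 125 and 131 with vehicle. Its AICAR libraries differed more from each other than its vehicle libraries, and both were below them. The log2 fold change was -0.94 ± 0.21 (SE, edgeR adjusted p = 0.00384). ANKRD37 overlaps UFSP2, a protease gene on the opposite strand, and no source used here says whether the counting used strand. UFSP2 had 21.3 ± 0.301 CPM with AICAR and 20.4 ± 0.334 CPM with vehicle (SD, n = 2) and did not pass (log2 fold change 0.07, edgeR adjusted p = 0.423).

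KDM3A (ENSG00000115548), which removes methyl groups from lysine 9 of histone H3, had 33.2 and 34.3 CPM in AICAR libraries against 42.7 and 41.6 CPM in vehicle libraries. The log2 fold change was -0.32 ± 0.050 (SE, edgeR adjusted p = 0.000485), and both AICAR values lay well below both vehicle values. Neither KDM3A (limma adjusted p = 0.0734) nor VHL (0.0622) passed in log2(FPKM + 1), with differences of -0.32 and -0.23 on that scale. Relatives of KDM3A moved in both directions. JMJD1C fell 2.04-fold, to 19.8 and 19.7 CPM with AICAR against 40.1 and 40.4 CPM with vehicle (edgeR adjusted p = 1.37e-07), and KDM3B rose 1.19-fold, to 130 and 132 CPM with AICAR against 113 and 108 CPM with vehicle (edgeR adjusted p = 0.000497). The KDM3B call was lost in log2(FPKM + 1) (limma adjusted p = 0.21).

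P4HA1 (ENSG00000122884), the catalytic subunit of a collagen prolyl hydroxylase, had 120 and 122 CPM with AICAR against 123 and 126 CPM with vehicle. The log2 fold change was -0.04 ± 0.037 (SE, edgeR adjusted p = 0.496). Its partner subunit P4HB rose 1.19-fold, with 356 and 366 CPM with AICAR against 304 and 304 CPM with vehicle (edgeR adjusted p = 0.000383). The isoenzyme P4HA2 had a log2 fold change of 0.08 and did not pass (edgeR adjusted p = 0.326).

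BNIP3L (ENSG00000104765) was the member with the highest fold change, 0.05 ± 0.047 on the log2 scale (SE, edgeR adjusted p = 0.418). It had 119 and 117 CPM in the AICAR libraries and 108 and 119 CPM in the vehicle libraries, so the groups overlapped. With libraries scaled by total counts alone the value was -0.01. BNIP3, its closest relative and also a mitophagy receptor, had 127 and 136 CPM with AICAR against 127 and 130 CPM with vehicle, and did not pass (edgeR adjusted p = 0.6115). A pseudogene, BNIP3P1, had between 19.8 and 34.8 counts in each library.

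**Figure D2:**
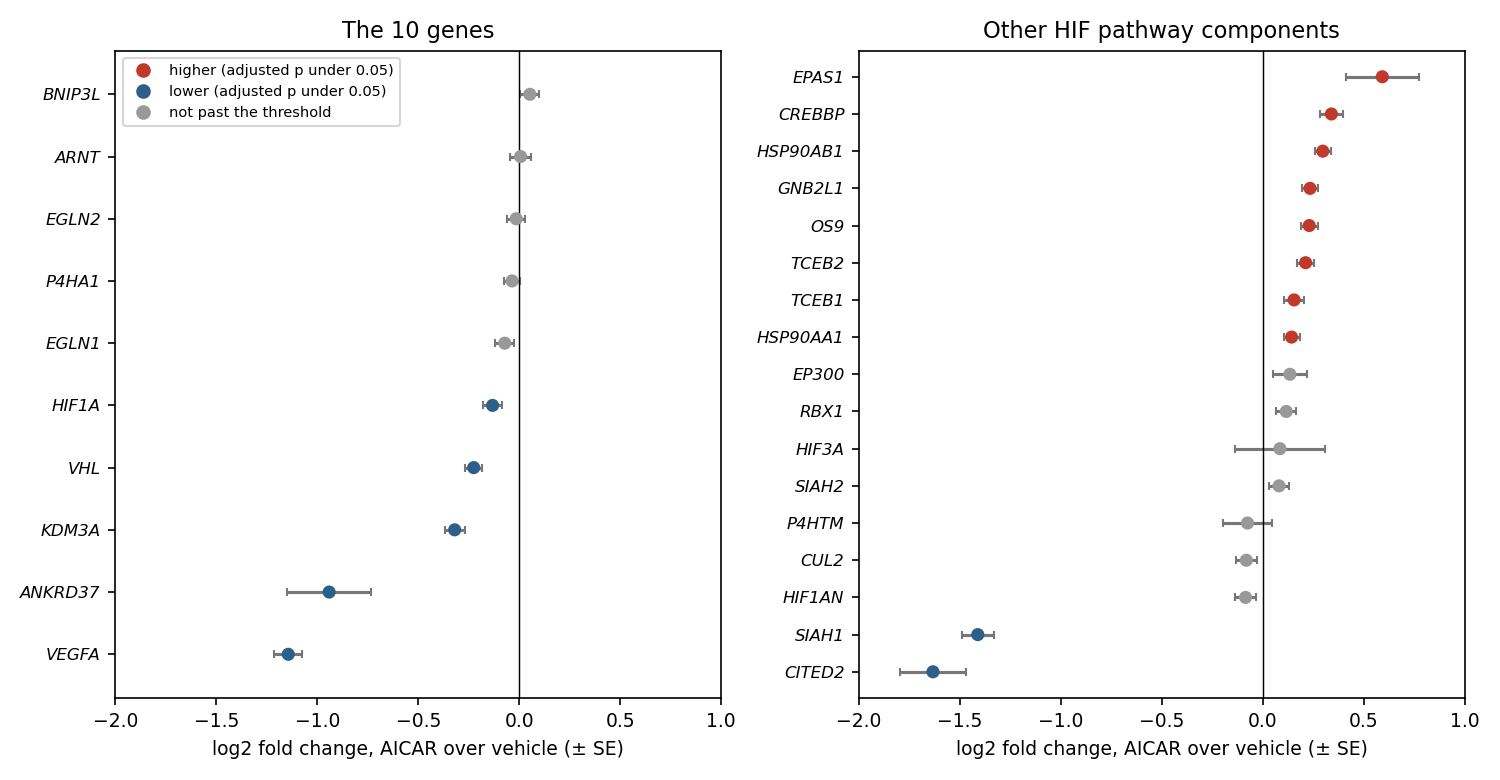
The left panel gives the log2 fold change (AICAR over vehicle, with SE bars) of the 10 genes and the right panel that of the 17 tested other HIF pathway components, in order of size. VEGFA at -1.14 and ANKRD37 at -0.94 stand apart from the other members, as CITED2 at -1.63 and SIAH1 at -1.41 do among the other components.

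Promoter sequence is shown for 3 of the target genes, of which ANKRD37 and KDM3A fell and P4HA1 did not pass. Each run is the stretch of 250 bases upstream of a RefSeq start on GRCh38.p14, read 5′ to 3′ on the gene's strand. Capitals mark the core of the hypoxia response element, searched as ACGTG or GCGTG on both strands. The ANKRD37 stretch is chr4:185396591-185396840 on the plus strand, that of KDM3A is chr2:86441121-86441370 on the plus strand and that of P4HA1 is chr10:73096867-73097116 on the minus strand.
ANKRD37: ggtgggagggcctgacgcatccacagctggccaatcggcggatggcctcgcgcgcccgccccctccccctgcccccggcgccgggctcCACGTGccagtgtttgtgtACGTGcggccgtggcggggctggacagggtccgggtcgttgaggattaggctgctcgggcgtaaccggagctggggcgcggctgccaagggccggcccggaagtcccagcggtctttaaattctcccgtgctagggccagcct
KDM3A: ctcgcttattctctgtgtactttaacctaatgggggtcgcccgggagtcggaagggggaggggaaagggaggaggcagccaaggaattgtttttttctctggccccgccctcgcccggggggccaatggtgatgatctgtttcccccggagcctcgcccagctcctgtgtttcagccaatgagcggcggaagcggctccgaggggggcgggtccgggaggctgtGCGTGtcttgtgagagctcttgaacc
P4HA1: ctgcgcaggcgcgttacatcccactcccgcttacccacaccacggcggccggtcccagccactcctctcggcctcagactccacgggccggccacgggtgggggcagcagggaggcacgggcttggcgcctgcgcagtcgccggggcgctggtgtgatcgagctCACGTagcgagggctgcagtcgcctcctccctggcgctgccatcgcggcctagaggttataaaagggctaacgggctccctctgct

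The ANKRD37 stretch held 3 matches to ACGTG. Of these, 2 lie in the palindrome CACGTG, where the core reads on both strands and which is also the E-box bound by MYC and other factors, and 1 begins 143 bases upstream of the start. KDM3A held 1 match to GCGTG, 26 bases upstream, and P4HA1 1 match to ACGTG on the opposite strand, 86 bases upstream. Over 7 members with a RefSeq window searched, 6 held a core in at least 1 window, ARNT being the exception. Some members have 2 windows, and 7 of the 10 windows held a core. The 2 KDM3A windows overlap and hold the same GCGTG, which lies 116 bases upstream of the second start. That 1 site is therefore counted in 2 windows. Of 35116 RefSeq windows of the same length, 43.2% held at least 1 core, 18.5% ACGTG and 32.2% GCGTG. A match of these letters does not show binding. VEGFA and VHL had no window in the RefSeq set used. The chromosome of BNIP3L was left out of the search of members, so BNIP3L was excluded by choice and is not in these counts.

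On the per-length scale of the deposited FPKM values, the level of BNIP3L was the highest of the 10 in both groups, at 84.9 ± 0.0424 FPKM with AICAR and 79.7 ± 1.33 FPKM with vehicle (SD, n = 2). P4HA1 and HIF1A followed, at 46.6 ± 1.39 and 44.5 ± 0.481 FPKM with AICAR against 49.3 ± 0.750 and 51.9 ± 0.856 FPKM with vehicle. HIF1A was thus above P4HA1 in both vehicle libraries and below it in both AICAR libraries. The middle of the order was the same in both groups, with EGLN2 at 29.05 ± 1.48 FPKM with AICAR and 30.2 ± 0.0919 FPKM with vehicle, then VHL, EGLN1 and ARNT.

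At the low end, VEGFA had 4.56 and 4.55 FPKM with AICAR against 9.95 and 11.8 FPKM with vehicle. With vehicle its values overlapped those of KDM3A (11.1 and 10.5 FPKM) and ARNT (12.9 and 11.7 FPKM), and with AICAR VEGFA lay below both genes. ANKRD37 was the lowest, at 1.81 and 2.62 FPKM with AICAR and 4.28 and 4.37 FPKM with vehicle. Within each library EGLN1 stood at 0.678 and 0.68 of the FPKM of EGLN2 with AICAR, against 0.6545 and 0.6705 with vehicle.

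The authors' deposited table gave the same direction for the members that fell. There 4 of the 10 were lower at a q under 0.05 in the authors' deposited table, where 12.5% of the 12652 genes with a q were. These were VEGFA (log2 fold change -1.01, q = 3.07e-15), KDM3A (-0.30, q = 0.00406), VHL (-0.21, q = 0.0175) and ANKRD37 (-0.52, q = 0.0277) in the authors' deposited table. HIF1A had q = 0.157 in the authors' deposited table.

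Among 17 tested components of the pathway beyond the 10 genes, 8 rose and 2 fell, with a median log2 fold change of 0.13, where 19.4% of all tested genes rose and 19.7% fell. The count of rises was 6 with total counts alone, with no low-count filter, with DESeq2 and without AICAR replicate 2, and 2 in limma on log2(FPKM + 1). CITED2, which competes with HIF1A for the coactivators CBP and p300, fell 3.10-fold, with 77 and 108 counts with AICAR against 345 and 287 with vehicle (log2 fold change -1.63 ± 0.16, SE, edgeR adjusted p = 2.01e-05). SIAH1, of a family of ubiquitin ligases that can target EGLN hydroxylases, fell 2.66-fold, with 276 and 334 counts with AICAR against 881 and 908 with vehicle (edgeR adjusted p = 2.48e-07). SIAH2, the other tested member of that family, had a log2 fold change of 0.08 and did not pass (edgeR adjusted p = 0.225).

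EPAS1, the HIF-2 alpha subunit, rose 1.51-fold from a low count, with 99 and 113 counts with AICAR against 75 and 80 with vehicle (log2 fold change 0.59 ± 0.18, SE, edgeR adjusted p = 0.0219). In the authors' deposited table the q of EPAS1 was 0.188. Its call was lost with DESeq2 (adjusted p = 0.13), in limma on log2(FPKM + 1) (0.0769) and log2(FPKM + 0.1) (0.0998), and on leaving out AICAR replicate 2 (adjusted p = 0.11), vehicle replicate 1 (0.0504) or vehicle replicate 2 (0.0528). HIF3A, a further alpha subunit, had a log2 fold change of 0.08 and did not pass (edgeR adjusted p = 0.805). HIF1A stood at 39.1 and 39.0 times the FPKM of EPAS1 in the AICAR libraries, against 99.1 and 66.6 times in the vehicle libraries. These ratios rest on low EPAS1 values, 1.13 and 1.15 FPKM with AICAR against 0.53 and 0.77 FPKM with vehicle. The vehicle values differ more on that scale than the counts of 75 and 80 do. CREBBP, the coactivator CBP, rose 1.27-fold, with 34.8 and 32.2 CPM with AICAR against 26.5 and 26.4 CPM with vehicle (edgeR adjusted p = 0.000793). On the FPKM scale CREBBP differed less, by 0.07 in log2(FPKM + 1), and did not pass (limma adjusted p = 0.674).

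The other rises among the components were small. HSP90AB1, a chaperone that stabilises HIF1A, rose 1.23-fold, and GNB2L1, the gene of the scaffold RACK1, which promotes HIF1A degradation, rose 1.18-fold. The elongin genes TCEB2 and TCEB1, whose products link VHL to its ligase, rose 1.16-fold and 1.11-fold (edgeR adjusted p = 0.00179 and 0.0293), while VHL itself was lower. In the authors' deposited table q was 0.00181 for TCEB2 and 0.149 for TCEB1. CUL2, the scaffold of that ligase, had a log2 fold change of -0.08 and did not pass (edgeR adjusted p = 0.259).

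Among 42 tested HIF target genes beyond the 10, 17 rose and 11 fell, with a median log2 fold change of 0.06, where 19.4% of all tested genes rose and 19.7% fell. The balance depended on the settings, with 12 higher and 14 lower with total counts alone, 13 and 13 without AICAR replicate 1, and 11 and 8 in limma on log2(FPKM + 1). The largest falls exceeded the largest rise. DDIT4, an inhibitor of mTORC1, fell 3.41-fold, with 914 and 1019 counts with AICAR against 3492 and 3781 with vehicle (edgeR adjusted p = 7.4e-10). CXCR4, the chemokine receptor for CXCL12, fell 2.54-fold, with 159 and 158 CPM with AICAR against 404 and 401 CPM with vehicle (edgeR adjusted p = 7.52e-10). BHLHE40, a transcriptional repressor, and HILPDA, a lipid droplet protein, fell 2.07-fold and 1.94-fold. BHLHE40 had 29 and 33 counts with AICAR against 63 and 79 with vehicle, and its call was lost in limma on log2(FPKM + 0.1) (adjusted p = 0.0507). In the authors' deposited table the q of BHLHE40 was 0.0759. The largest rise was that of HK1, the first enzyme of glycolysis, at 77.6 and 76.9 CPM with AICAR against 61.1 and 59.2 CPM with vehicle, or 1.28-fold (edgeR adjusted p = 5.2e-05).

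Grouped by role, a grouping made after the values were seen, the targets split. For comparison with the counts below, 19.4% of all tested genes rose and 19.7% fell. Most of the falls lay among 17 tested targets outside the named roles, of which 3 rose and 8 fell. Of 3 tested genes of collagen and matrix modification, 1 rose and 0 fell. Of 12 glycolytic enzyme genes 11 rose, by log2 fold changes between 0.135 and 0.36, and HK2 had 0.01 and did not pass. With libraries scaled by total counts alone 8 of the 12 rose. TPI1, PFKL and GAPDH rose 1.23-fold, 1.21-fold and 1.21-fold. Of 6 tested transporters and regulators of glucose use, 3 fell, the glucose transporter genes SLC2A1 (1.29-fold) and SLC2A3 (1.17-fold) and PFKFB3 (1.21-fold), which makes an activator of glycolysis. The count was 2 with upper-quartile factors and 4 with total counts alone. SLC2A3 was near the threshold (edgeR adjusted p = 0.0448), and in the authors' deposited table q was 0.374 for SLC2A3 and 0.0831 for PFKFB3. Of 4 histone demethylase targets, KDM5C and KDM4B rose, by 0.23 and 0.21 on the log2 scale (1 of the 4 with total counts alone), while the member KDM3A fell. KDM4B had 5.31 and 5.74 FPKM with AICAR against 8.26 and 4 FPKM with vehicle, so on that scale its groups overlapped and its mean was lower with AICAR. Its q in the authors' deposited table was 0.187.

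**Figure D3:**
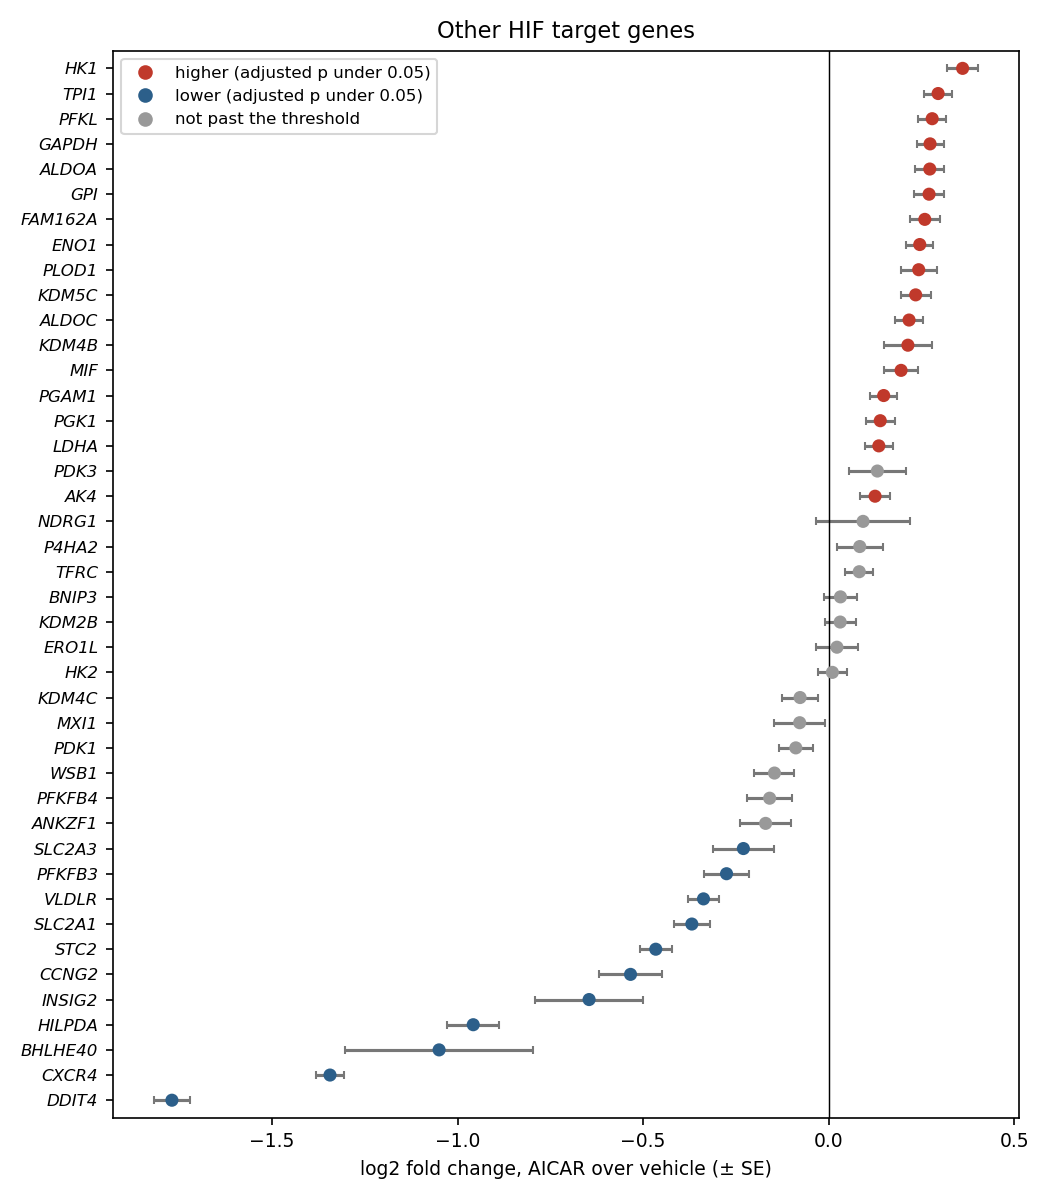
Points give the log2 fold change (AICAR over vehicle, with SE bars) of the 42 tested HIF target genes beyond the 10, in order of size and coloured by call. The falls reach -1.77 for DDIT4, and the rises stay at or below 0.36.

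In the VEGF family, VEGFA fell while VEGFB rose. VEGFB, a ligand of the receptor FLT1, had 30.2 and 32.2 CPM with AICAR against 26.3 and 24.6 CPM with vehicle (log2 fold change 0.29 ± 0.061, SE, edgeR adjusted p = 0.002745), but did not pass on the FPKM scale (limma adjusted p = 0.18). PGF, a ligand gene at a low count, had 15 and 10 counts with AICAR against 26 and 21 with vehicle and did not pass (edgeR adjusted p = 0.18). VEGFA made up 11.8% and 11.3% of the summed FPKM of VEGFA, VEGFB and PGF in the AICAR libraries, against 23.1% and 29.3% in the vehicle libraries.

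Of the receptors, FLT1 was lower, at 9.52 and 8.38 CPM with AICAR against 11.1 and 11.15 CPM with vehicle (log2 fold change -0.32 ± 0.093, SE, edgeR adjusted p = 0.0186). DESeq2 did not call FLT1 (adjusted p = 0.135), nor did edgeR with no low-count filter (adjusted p = 0.0601) or on leaving out AICAR replicate 2 (log2 fold change -0.22). The call was also lost in limma on log2(FPKM + 1) (adjusted p = 0.173) and log2(FPKM + 0.1) (0.1825). In the authors' deposited table the q of FLT1 was 0.2035. FLT4 (log2 fold change 0.37, edgeR adjusted p = 0.237) and NRP2 (-0.004, adjusted p = 0.995) did not pass. KDR, the main VEGFA receptor of endothelium, had 0 and 1 counts with AICAR against 0 and 3 with vehicle, and the coreceptor NRP1 0 and 1 counts with AICAR against 0 and 1 with vehicle.

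**Figure D4:**
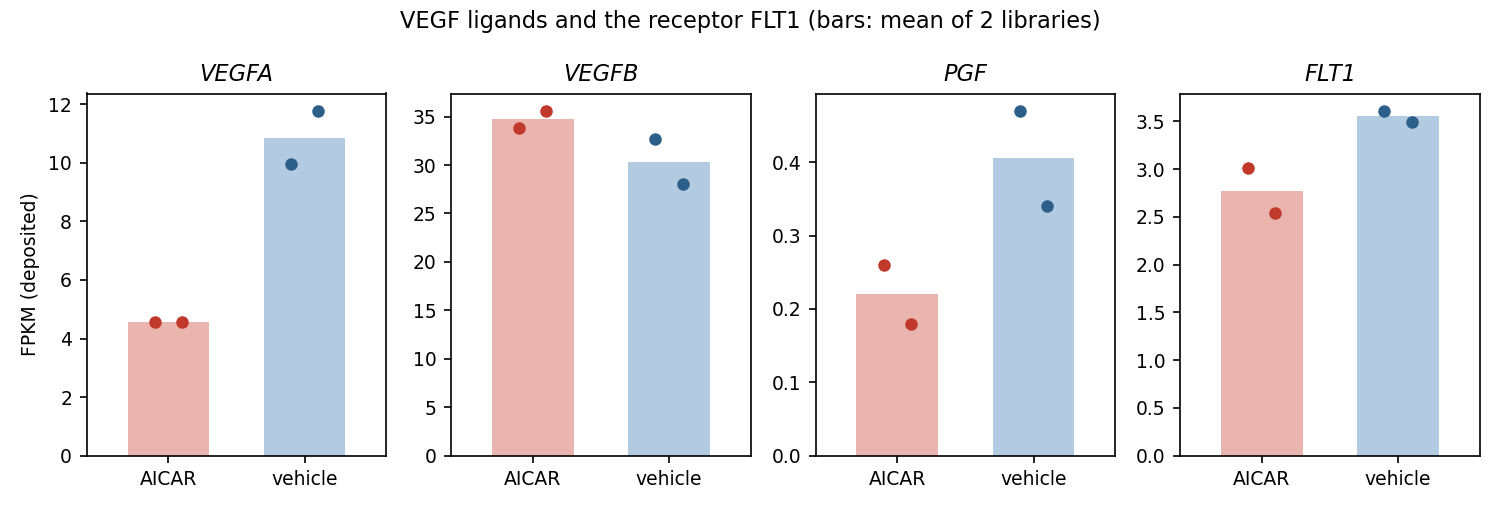
Deposited FPKM values are plotted for VEGFA, VEGFB, PGF and FLT1, with points for single libraries and bars for the mean of 2, AICAR left of vehicle. VEGFA sits at 4.56 and 4.55 FPKM with AICAR against 9.95 and 11.8 FPKM with vehicle, while VEGFB is the more abundant ligand in every library.

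The libraries held 32318376 and 34458010 expected counts with AICAR, and 33919915 and 36769116 with vehicle. With libraries scaled by total counts alone, 69.3% of all calls were lower in place of 50.4%, and the same 5 of the 10 genes were lower. All 10 B cell precursor markers were detected in each library, with summed levels of 2655 to 2705 CPM (unscaled) with AICAR and 2707 to 2797 CPM with vehicle. Markers of T cells, of red cells, of endothelium and of fibroblasts or epithelium each summed to under 1 CPM, but over few genes, since the table analysed held 1 of 5 T cell, 1 of 5 red cell, 2 of 4 endothelial and 2 of 4 fibroblast or epithelial markers. The table held all 5 myeloid markers, which summed to between 1.96 and 2.815 CPM. The labels do not say whether libraries of a group came from separate cultures, so p-values measure the spread between these libraries, which may be technical.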

How the data were processed

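Total RNA of 4 NALM6 libraries was sequenced from a stranded kit as single reads of 75 bases, per the labels' protocols. Per the submitters' processing notes, the tools were RSEM 1.2.31, STAR 2.5.3a, Trimmomatic 0.32 and DESeq2, with the hg19 build and no roles. Sources used here name no annotation. The authors deposited expected counts (estimated, not normalized), FPKM values (normalized for length and depth), and their own log2 fold changes and q-values (quoted as the authors').

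Expected counts were rounded to whole numbers, filtered with filterByExpr (minimum count 10, minimum total 15), scaled with TMM factors and tested two-sided by quasi-likelihood in edgeR 4.0.16 under R 4.3.3, with p adjusted by Benjamini-Hochberg over 13626 genes, threshold 0.05. The SE is the log2 fold change divided by the root of the F statistic. The code was tested on simulated data. The common biological coefficient of variation was 3.63%. Replicates differed by more than sampling noise (chi-square per gene 2.96 for AICAR, 8.35 for vehicle), so none was treated as a copy.

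Named were all members, in each further list up to 4 called genes per direction with the largest changes and a mean of at least 1 CPM, and relatives and overlapping genes by name. RP11-618G20.1, SIAH2, CUL2, the elongin genes, KDR, FLT4, NRP1, NRP2, PGF, SLC2A1, SLC2A3, PFKFB3, HK2, KDM5C and KDM4B were added after their values were seen. Members and lists were chosen with earlier results of these data known. Overlaps came from GENCODE 29 and promoters from RefSeq (GRCh38.p14), not the authors' build. Alternatives were other scalings, filters and tests (DESeq2 1.42.0, limma 3.58.1, also on FPKM with pseudocounts of 1 and 0.1), a replicate block, protein-coding genes alone and each library left out. Figures used matplotlib 3.10.9.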

Additional observations from a re-analysis of the deposited data

How the results depend on the processing

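Over 15 alternatives, the count of members called lower was 4 or 5 except on the FPKM scale, where limma with a pseudocount of 1 or 0.1 called 3, and the count called higher was 0 in each. VEGFA was lower in all 15 (log2 fold change -1.23 to -1.09), and ANKRD37 in the 14 that tested it (-1.24 to -0.70), a mean of at least 10 CPM having left it out. KDM3A and VHL lost their calls in both FPKM fits (adjusted p of 0.0734 and 0.0683 for KDM3A, 0.0622 and 0.0617 for VHL), with differences of about the same size (-0.32 and -0.35 for KDM3A, -0.23 and -0.24 for VHL). HIF1A kept its call in both FPKM fits, with log2 fold changes of -0.218 and -0.222 (limma adjusted p = 0.0369 and 0.0379). It lost the call without either AICAR replicate or vehicle replicate 1, and with upper-quartile factors (adjusted p = 0.0506), no low-count filter (0.159) and DESeq2 (0.109). The cause was not tested.

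In the FPKM fits (pseudocount 1, then 0.1), the other pathway components had 2 and 2 higher, the other targets 11 and 10 higher and 8 and 7 lower, and the VEGF list 0 higher and 0 lower in both. All genes had 603 and 591 higher and 1289 and 1285 lower. A mean of at least 10 CPM left 1 component lower, having tested fewer genes. The VEGF list had 0 lower with no low-count filter, with DESeq2 and without AICAR replicate 2, and 0 to 1 over the libraries left out. Scaling by total counts gave 1390 higher and 3135 lower over all genes.

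Values near 0 changed sign without a call. ARNT had -0.054 with total counts alone, -0.034 at 10 CPM, -0.0046 and -0.00497 on FPKM, and -0.032 to 0.032 with a library left out. BNIP3L had -0.0059 with total counts alone and -0.016 to 0.11 with a library left out. EGLN2 had 0.027 with read-through counts added (chosen after seeing the data) and -0.038 to 0.0043 with a library left out. BNIP3 had -0.028 with total counts alone, -0.0089 at 10 CPM, -0.028 on both FPKM scales, and -0.019 to 0.085 with a library left out. HIF3A had -0.034 and -0.065 on FPKM, and -0.13 to 0.28 with a library left out.

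With a replicate block the members' count was 5 lower, and 2708 genes were higher and 2721 lower. Nothing shows that the numbers pair the samples (correlation of deviations -0.0696). Depth limits genes of low count, among them BHLHE40 (29 to 79 counts), ANKRD37 (48 to 131) and EPAS1 (75 to 113).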
